A study of Homo sapiens with 12 samples.

Results

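IFITM1, IFITM2 and IFITM3 encode the interferon-induced transmembrane proteins, small antiviral membrane proteins whose genes sit side by side near the tip of the short arm of chromosome 11. They are 3 of the 58735 lines of the deposited count table, and all 3 were among the 16946 genes that passed the filter on low counts. They were chosen by their measured levels in SCC-15, which were higher in cells with TTK knockdown, so their values in that comparison are given as a description, with no test. RNA was sequenced from CAL-27 and SCC-15, both established lines of human oral squamous cell carcinoma. The 4 groups held 3 libraries each. They were CAL-27 with an shRNA against TTK (shTTK), CAL-27 shControl, SCC-15 shTTK and SCC-15 shControl. TTK encodes a protein kinase of the mitotic spindle checkpoint. The labels call the control samples shControl in 1 field and untreated wild type in others, so they do not settle whether a control hairpin was present. The labels do not say how many hairpins or clones stood behind shTTK. Nothing in the labels says that the numbered libraries came from separate cultures, so the p-values cover the spread among these libraries alone, and that spread may be technical.

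IFITM proteins hinder the fusion of enveloped viruses with host membranes. IFITM1 sits mainly at the cell surface, whereas IFITM2 and IFITM3 carry an endocytosis signal that takes them to late endosomes and lysosomes. Their genes are classical targets of type I and type II interferon: receptor signalling through JAK kinases activates transcription factors, which bind interferon-stimulated response elements (ISRE) and gamma-activated sites (GAS) in promoters. Many carcinoma cells express the genes without added interferon.

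Of the 3 members, 2 matched an entry in the RefSeq promoter table (GRCh38.p14), IFITM1 and IFITM3. The sequences from 250 bases before to 20 bases after each start site are shown because both hold letters of the ISRE. Capitals mark each ISRE-like match (GAAA, any 2 bases, GAAA), searched on both strands. The IFITM1 window is chr11:313790-314059 (plus strand) and the IFITM3 window is chr11:320841-321110 (minus strand), each printed along its gene's strand.
IFITM1: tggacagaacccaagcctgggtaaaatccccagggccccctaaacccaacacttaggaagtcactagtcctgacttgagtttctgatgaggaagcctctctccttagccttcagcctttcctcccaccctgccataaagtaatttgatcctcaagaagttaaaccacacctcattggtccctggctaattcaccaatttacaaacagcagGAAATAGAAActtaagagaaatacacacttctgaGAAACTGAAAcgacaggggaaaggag
IFITM3: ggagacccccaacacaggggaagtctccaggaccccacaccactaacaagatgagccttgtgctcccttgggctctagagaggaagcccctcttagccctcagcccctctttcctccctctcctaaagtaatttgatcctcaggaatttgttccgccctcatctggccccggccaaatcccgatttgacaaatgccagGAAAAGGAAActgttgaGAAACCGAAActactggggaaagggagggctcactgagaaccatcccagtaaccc
In IFITM1 the matches were GAAATAGAAA, which begins at position -40 from the start site, and GAAACTGAAA, at position -6. In IFITM3 they were GAAAAGGAAA at -52 and GAAACCGAAA at -35. A match of the GAS-like letters (TTC, any 3 bases, GAA) was found in IFITM1 only, TTCTGAGAA at -12, which fits the pattern on both strands and overlaps the second ISRE-like match. Over windows that run to 50 bases after the start site, 996 of 27305 promoters in the table held the ISRE-like letters (3.65%), and 2152 the GAS-like letters (7.88%). Among 55 promoters of other interferon-stimulated genes, 34 held the ISRE-like (61.8%) and 13 the GAS-like letters (23.6%). The IFITM1 and IFITM3 promoter windows aligned over 216 columns with 72.2% identity. These matches describe letters in the windows and say nothing of whether a factor bound there.

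The 3 genes share sequence, which bears on how far their counts can be told apart. In GENCODE release 29 on GRCh38, IFITM2 (ENSG00000185201.16) spans chr11:307631-315272 and IFITM1 (ENSG00000185885.15) chr11:313506-315272, both on the plus strand. IFITM3 (ENSG00000142089.15) spans chr11:319669-327537 on the minus strand. The models of IFITM1 and IFITM2 overlap, because the transcript IFITM2-201 runs to base 315272 and takes in the last exon of IFITM1. That exon stretch is 351 bases long, 32.5% of the exon bases of IFITM1 and 22.8% of those of IFITM2. Reads that fall in it belong to both models on the same strand. Between the main transcripts, IFITM2-202 and IFITM3-201 were 91.5% identical over 529 aligned columns, IFITM1-202 and IFITM2-202 85.9% over 355 columns, and IFITM1-202 and IFITM3-201 80.3% over 603 columns. The reads were 150 bases long. No stretch of 150 bases was common to IFITM3 and either of the others, whereas IFITM1 and IFITM2, whose models overlap, had 214 in common. At 75 bases, 87 stretches were common to IFITM2 and IFITM3, 6.48% of those of IFITM3. IFITM3 also overlaps AC136475.5, a long noncoding gene on the opposite strand, over 287 exon bases. That gene had 0 to 2 counts in each library. Neither the strand option used in counting nor the treatment of reads that fit more than 1 place or model is known, so the split of counts among the 3 genes is uncertain.

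Library totals lay between 16176655 and 18484112 counts, and the members had 367 to 9759 counts each in every library. In both lines all shTTK libraries had less TTK than all controls, with 32.5 to 35.6 CPM (TMM-scaled CPM, a count relative to the size of its library) in CAL-27 shTTK against 46.4 to 53.4 CPM in CAL-27 shControl. In SCC-15 it was 26.9 to 34.3 CPM in shTTK against 67.5 to 72.9 CPM in shControl. The SCC-15 libraries with the number 1 differed most from the rest of their groups, with a mean chi-square per gene of 5.62 and 5.96 for control library 1 against libraries 2 and 3, where those 2 differed by 1.98. For shTTK library 1 it was 3.07 and 3.78, against 1.95 between libraries 2 and 3. SCC-15 results are therefore also given without both libraries numbered 1.

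IFITM3 was the most abundant member in every library. It had 411, 406 and 413 CPM in CAL-27 shTTK libraries 1, 2 and 3, against 326, 372 and 368 CPM in CAL-27 shControl. In SCC-15 it had 567, 541 and 545 CPM in shTTK, against 377, 374 and 370 CPM in shControl. Every shTTK library lay above every control library of its line, and CAL-27 control library 1 lay well below the other 2 controls. IFITM1, the cell-surface member, had 69.1, 74.3 and 73.0 CPM in CAL-27 shTTK, against 54.1, 61.4 and 54.7 CPM in CAL-27 shControl. In SCC-15 it had 70.3, 70.8 and 69.6 CPM in shTTK, against 43.1, 45.1 and 40.8 CPM in shControl. Its shTTK libraries again lay above all controls of the same line. IFITM2, the endosomal relative of IFITM3, had 55.5, 58.5 and 56.4 CPM in CAL-27 shTTK, against 45.6, 47.6 and 49.7 CPM in CAL-27 shControl. In SCC-15 it had 46.6, 46.7 and 49.7 CPM in shTTK, against 22.9, 22.0 and 21.5 CPM in shControl. The groups of a line did not overlap for any of the 3 genes. Such a full separation upward was seen in 17.1% of tested genes in CAL-27 and 19.3% in SCC-15.

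**Figure D1:**
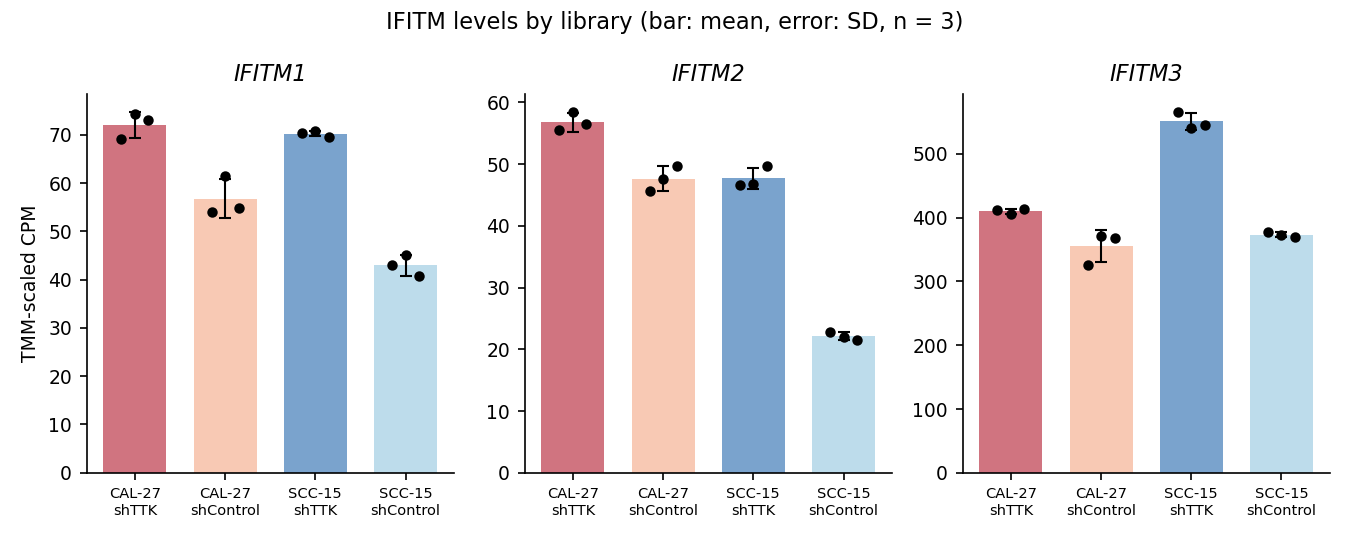
TMM-scaled CPM of IFITM1, IFITM2 and IFITM3 in each library (points), with the mean (bar) and SD (error bar, n = 3) of each group; the vertical scales differ between genes and start at 0. The shTTK points lie above the shControl points of the same line in all 3 panels, and IFITM2 in SCC-15 shControl, at 21.5 to 22.9 CPM, is the lowest group plotted.

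In CAL-27, the comparison that did not choose them, all 3 members rose with TTK knockdown. IFITM1 averaged 72.1 ± 2.703 CPM in shTTK and 56.8 ± 4.05 CPM in shControl (SD, n = 3 each), a log2 fold change of 0.34 ± 0.0531 (SE) with a 95% interval of 0.24 to 0.45 (edgeR adjusted p = 1.80e-07). IFITM3 averaged 410 ± 4.07 CPM in shTTK and 355 ± 25.2 CPM in shControl, a log2 fold change of 0.21 ± 0.0335 with an interval of 0.14 to 0.27 (edgeR adjusted p = 7.86e-07). IFITM2 averaged 56.8 ± 1.54 CPM in shTTK and 47.7 ± 2.01 CPM in shControl, a log2 fold change of 0.25 ± 0.0576 with an interval of 0.14 to 0.37 (edgeR adjusted p = 0.000313). As folds these are 1.27, 1.15 and 1.19. The 3 of 3 members called higher stand beside 11.6% of all tested genes called higher in CAL-27, and 27.3% called in either direction. The changes were modest in size: 86.1% of tested genes had a lower log2 fold change than IFITM1, 81.5% than IFITM2 and 78.3% than IFITM3. Without CAL-27 control library 1, the lowest for IFITM3, that gene's log2 fold change was 0.14 and those of IFITM1 and IFITM2 were 0.30 and 0.22, and all 3 stayed called.

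In SCC-15 the differences were larger, and IFITM2 led. IFITM2 averaged 47.7 ± 1.75 CPM in shTTK and 22.1 ± 0.675 CPM in shControl (SD, n = 3 each), a log2 fold change of 1.11 ± 0.0645 and a fold of 2.15. IFITM1 averaged 70.3 ± 0.587 CPM in shTTK and 43.0 ± 2.18 CPM in shControl, a log2 fold change of 0.71 ± 0.0547 and a fold of 1.63. IFITM3 averaged 551 ± 13.5 CPM in shTTK and 373 ± 3.75 CPM in shControl, a log2 fold change of 0.56 ± 0.0332 and a fold of 1.48. In this line 13.4% of tested genes were called higher and 27.7% in either direction, and the log2 fold changes of the members exceeded those of 98.5% (IFITM2), 96.1% (IFITM1) and 94.3% (IFITM3) of genes. Since this comparison chose the members, nothing is read from these shares. Without both SCC-15 libraries numbered 1 the log2 fold changes were 1.15, 0.71 and 0.55 for IFITM2, IFITM1 and IFITM3. The SCC-15 change exceeded the CAL-27 change by 0.85 ± 0.0868 for IFITM2, 0.36 ± 0.0763 for IFITM1 and 0.35 ± 0.0471 for IFITM3 on the log2 scale. These differences hold the comparison that chose the genes and were not tested. TTK itself was lowered more in SCC-15, to 26.9 to 34.3 CPM against 67.5 to 72.9 CPM in shControl. In CAL-27 it was 32.5 to 35.6 CPM against 46.4 to 53.4 CPM. The part of this in the larger SCC-15 differences was not tested.

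**Figure D2:**
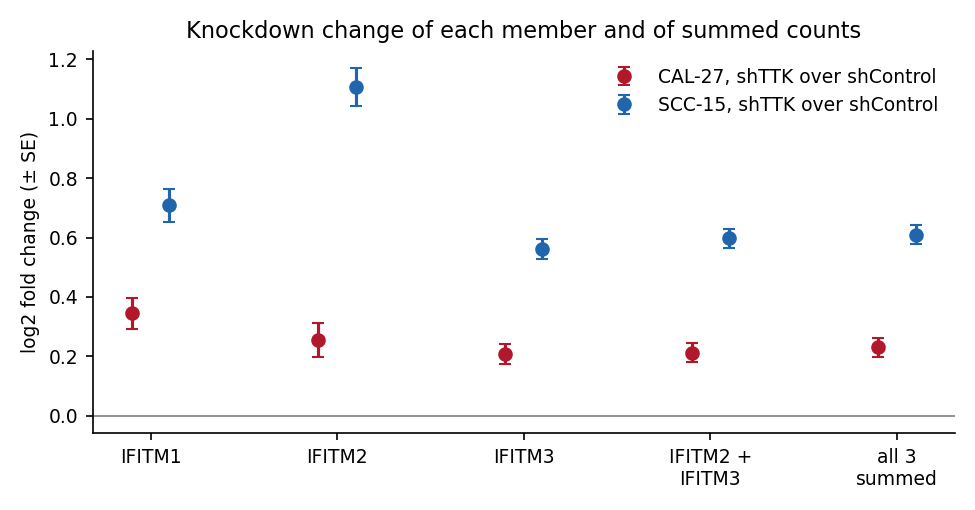
Log2 fold change (shTTK over shControl) of each member, of IFITM2 and IFITM3 summed, and of all 3 summed, in CAL-27 (red) and SCC-15 (blue); points are edgeR estimates and bars their standard errors. The SCC-15 points lie between 0.56 and 1.11 and the CAL-27 points between 0.21 and 0.34.

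Because the genes share sequence, their counts were also summed, so that counted reads are compared however they were split among the genes. Reads left out or counted more than once are not corrected by this. All 3 together made up 536 to 543 CPM in CAL-27 shTTK against 426 to 481 CPM in CAL-27 shControl, a log2 fold change of 0.23 ± 0.0321 (edgeR adjusted p = 1.40e-08). In SCC-15 the sum was 659 to 683 CPM in shTTK against 432 to 443 CPM in shControl, a log2 fold change of 0.61 ± 0.0320. IFITM3 dominates this sum. IFITM2 and IFITM3 summed, the closest pair in sequence, gave 0.21 ± 0.0326 in CAL-27 (edgeR adjusted p = 1.83e-07) and 0.60 ± 0.0325 in SCC-15.

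The makeup of the IFITM counts differed mainly between lines. IFITM3 held 82.4% ± 0.457 of the summed counts in SCC-15 shTTK and 85.2% ± 0.409 in SCC-15 shControl (SD, n = 3 each). In CAL-27 it held 76.1% ± 0.714 in shTTK and 77.3% ± 0.652 in shControl. The share of IFITM2 was 7.13% ± 0.330 in SCC-15 shTTK and 5.05% ± 0.0972 in SCC-15 shControl, against 10.5% ± 0.285 in CAL-27 shTTK and 10.4% ± 0.418 in CAL-27 shControl. The share of IFITM2 was thus higher with knockdown in SCC-15 and close to its control value in CAL-27. IFITM1 held 10.5% ± 0.228 in SCC-15 shTTK and 9.80% ± 0.404 in SCC-15 shControl, and 13.4% ± 0.458 in CAL-27 shTTK and 12.4% ± 0.661 in CAL-27 shControl. In CAL-27 the shTTK share minus the shControl share was 1.02 percentage points for IFITM1, 0.157 for IFITM2 and -1.18 for IFITM3. Two-sided exact permutation tests of these gave p = 0.1, 0.7 and 0.2 (unadjusted, 3 tests), where 3 libraries against 3 allow no p below 0.1, so none could pass. The ratio of IFITM1 to IFITM2 counts was 1.48 in SCC-15 shTTK and 1.94 in SCC-15 shControl, and 1.27 in CAL-27 shTTK and 1.19 in CAL-27 shControl. How reads from the exon that both models hold entered these counts is not known.

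Levels can be compared between the genes only per length. Per kilobase of exon, IFITM3 averaged 409 CPM in SCC-15 shTTK and 277 CPM in SCC-15 shControl, and 304 CPM in CAL-27 shTTK and 264 CPM in CAL-27 shControl. IFITM1 averaged 65.0 CPM per kilobase in SCC-15 shTTK and 39.8 in SCC-15 shControl, and 66.8 in CAL-27 shTTK and 52.5 in CAL-27 shControl. IFITM2 averaged 30.9 CPM per kilobase in SCC-15 shTTK and 14.3 in SCC-15 shControl, and 36.8 in CAL-27 shTTK and 30.9 in CAL-27 shControl. The order IFITM3, IFITM1, IFITM2 was the same in all 4 groups, also with the shared exon left out of the lengths of IFITM1 and IFITM2.

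The order of the groups differed by gene. For IFITM3 it ran, from high to low, SCC-15 shTTK, CAL-27 shTTK, SCC-15 shControl and CAL-27 shControl, with the last 2 overlapping. For IFITM1 the 2 shTTK groups overlapped at the top, followed by CAL-27 shControl and then SCC-15 shControl. For IFITM2 CAL-27 shTTK was highest, SCC-15 shTTK and CAL-27 shControl overlapped at the same mean of 47.7 CPM, and SCC-15 shControl was lowest. The SCC-15 control level over the CAL-27 control level was -1.10 ± 0.0646 (log2) for IFITM2 and -0.40 ± 0.0560 for IFITM1. For IFITM3 it was 0.07 ± 0.0335, and -0.04 after a correction for GC content and length chosen after seeing the data. The SCC-15 controls lay below all CAL-27 controls for IFITM1 and IFITM2, as they did for 39.1% of tested genes. These control libraries also enter the SCC-15 comparison that chose the members, so no test is given.

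The genes around the IFITM cluster were examined because the 3 members lie next to one another. Of 45 genes within 250 kb in the annotation, 24 were tested, with the members left out. In SCC-15, 12 of the 24 rose and 0 fell with TTK knockdown, against 13.4% higher and 14.3% lower over all tested genes, and their median log2 fold change was 0.22 against 0.00. At an unadjusted p under 0.05 edgeR also found 12 higher and 0 lower, and DESeq2 and limma-voom each called 12 and 0. Without both SCC-15 libraries numbered 1, 8 rose and 0 fell. In CAL-27, 3 rose and 3 fell (1 fell without CAL-27 shTTK library 3), with a median of -0.05, against 11.6% higher and 15.7% lower over all genes.

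Within 100 kb, 13 genes were tested and 7 of them rose in SCC-15. PGGHG, a glucosidase that acts on hydroxylysine-linked sugars of collagen and the nearest of the 7, averaged 45.3 ± 3.87 CPM in SCC-15 shTTK and 32.1 ± 3.78 CPM in SCC-15 shControl (SD, n = 3 each), a log2 fold change of 0.50 ± 0.117 (edgeR adjusted p = 0.00862). ANO9, a membrane protein of the anoctamin family, averaged 42.9 ± 0.758 CPM in shTTK and 31.1 ± 2.09 CPM in shControl, with 0.46 ± 0.0904 (edgeR adjusted p = 0.000303). SIGIRR, an inhibitory member of the interleukin-1 receptor family, had a log2 fold change of 0.35, the chaperone and exchange factor RIC8A 0.28, the desmosomal plakophilin PKP3 0.19, the proteasome subunit PSMD13 0.17 and the glycosyltransferase B4GALNT4 0.16. The largest edgeR adjusted p among these was 0.024, for B4GALNT4. Each of the 7 had a smaller log2 fold change in SCC-15 than any IFITM member. The members were chosen by their change in SCC-15, so nothing is read from this order. SIRT3, a mitochondrial deacetylase (0.04), NLRP6, an inflammasome receptor (0.20), and the noncoding AC136475.10 (-0.29) and AC136475.3 (0.23) were not called there. The other 2 tested genes within 100 kb averaged under 1 CPM.

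Farther out in SCC-15, PTDSS2, a phosphatidylserine synthase, rose by 0.42 to 69.7 CPM in shTTK against 52.0 CPM in shControl (edgeR adjusted p = 3.16e-09), and RASSF7 rose by 0.33. The remaining calls were BET1L, RNH1 and HRAS. In CAL-27 the 3 genes that rose were ANO9 (log2 fold change 0.44) and the noncoding LINC01001 (0.64) and MIR210HG (0.71), and the named genes that fell were PKP3 (-0.16) and AC136475.3 (-0.40). ANO9 was the 1 neighbour called higher in both lines.

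**Figure D3:**
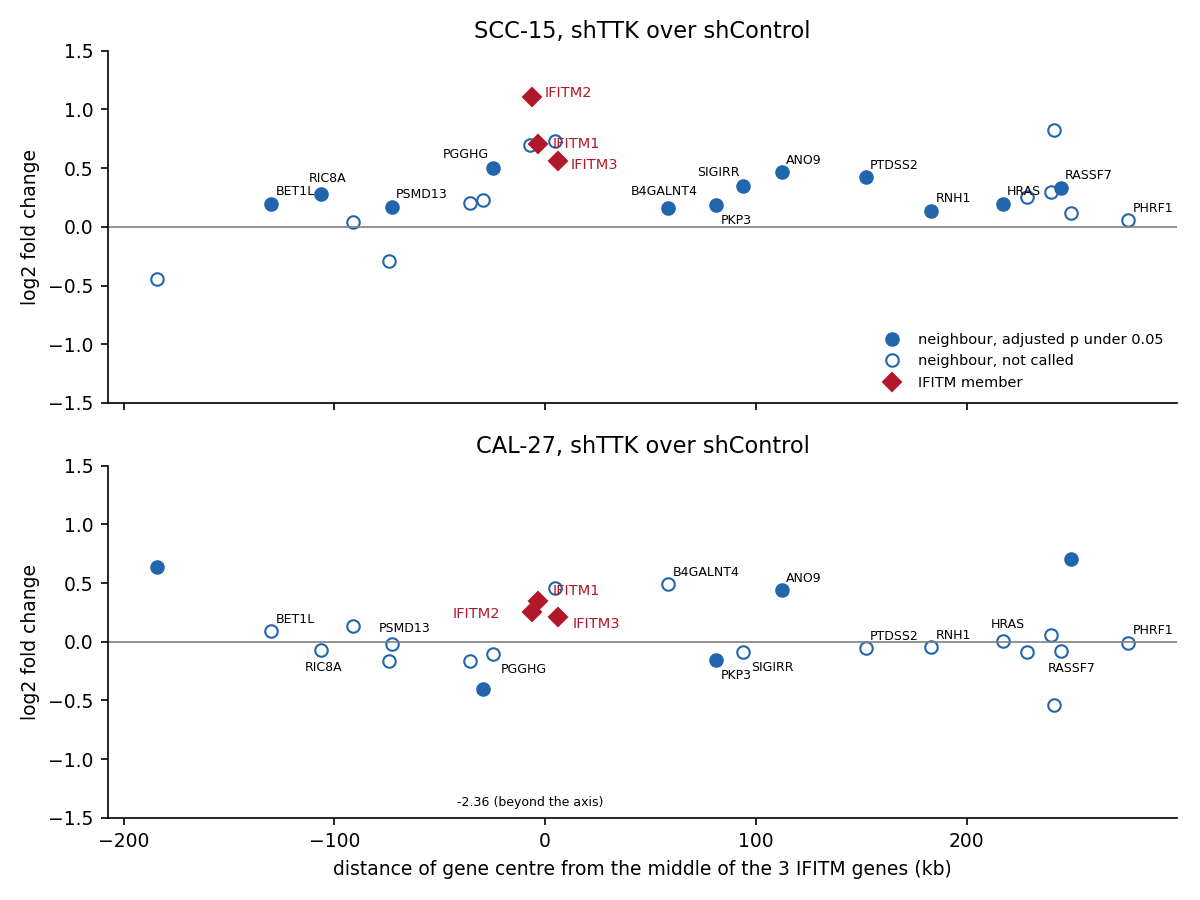
Log2 fold change (shTTK over shControl) of the 24 tested genes within 250 kb and of the 3 IFITM members (red diamonds), by distance in kb between gene centres and the middle of the cluster; filled circles passed an edgeR adjusted p of 0.05, and names are given for neighbours averaging at least 20 CPM. In SCC-15 the 12 filled circles all lie above 0, and below the members, which were chosen by this comparison. In CAL-27 the filled circles lie on both sides of 0, with 1 called gene at -2.36 beyond the axis.

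The upward calls in SCC-15 thinned with distance. Between 250 kb and 1 Mb, 10 of 27 tested genes rose and 0 fell. Between 1 and 5 Mb, 9 of 39 rose and 3 fell, and on the rest of chromosome 11, 76 of 835 rose (9.10%) and 201 fell (24.1%). On the other chromosomes 13.5% rose and 13.8% fell. In CAL-27 the same distances gave 2 of 27 higher and 9 lower, 6 of 39 higher and 4 lower, and 12.2% higher and 19.6% lower on the rest of the chromosome. GC content moved with this pattern. Tested genes within 250 kb had a median GC content of 63.8%, against 48.6% on other chromosomes, and in SCC-15 the share called higher ran from 8.34% in the 20% of genes with the lowest GC content, through 9.90%, 12.4% and 15.7%, to 20.8% in the 20% with the highest. The members lay in the next to highest of these 5 bins, at 52.5% (IFITM1), 55.4% (IFITM2) and 56.9% (IFITM3). After the GC and length correction, 11 of the 24 neighbours rose and 0 fell in SCC-15, with a median of 0.18, and the SCC-15 log2 fold changes of IFITM1, IFITM2 and IFITM3 were 0.69, 1.08 and 0.53.

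**Figure D4:**
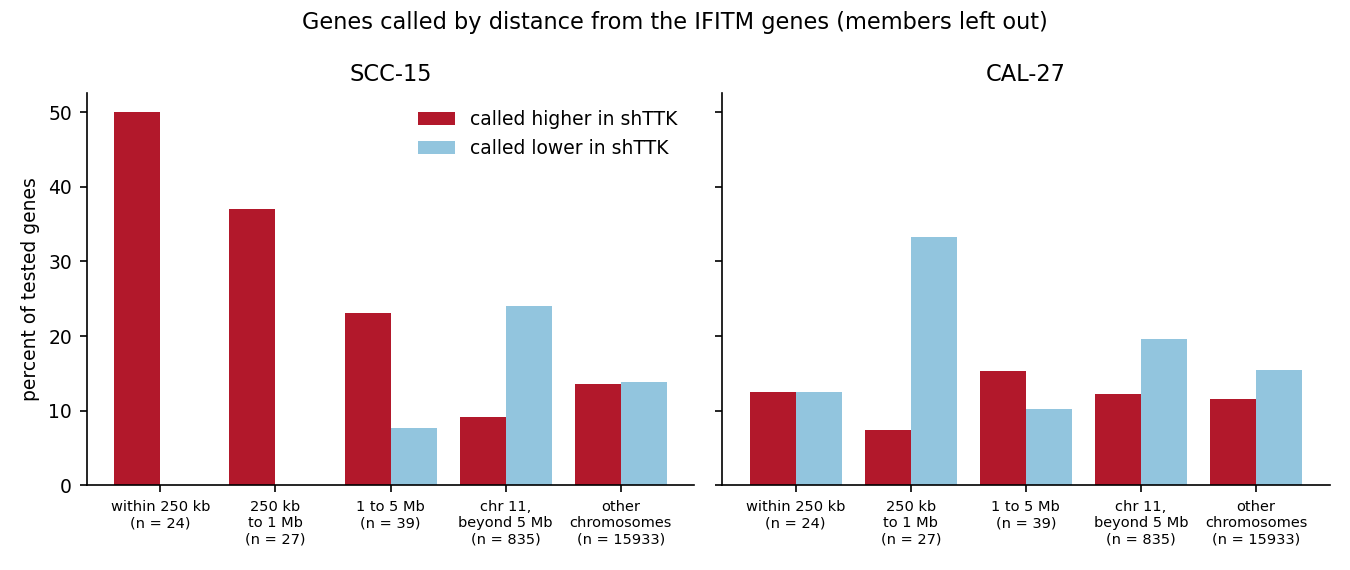
Percent of tested genes called higher (red) and lower (blue) in shTTK by edgeR at an adjusted p under 0.05, by distance from the IFITM cluster, with the members left out and the number of tested genes under each pair of bars. In SCC-15 the share called higher is 50% within 250 kb, 37.0% to 1 Mb, 23.1% to 5 Mb and 9.10% on the rest of chromosome 11; in CAL-27 the nearest genes are called higher and lower equally often, at 12.5%.

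Other interferon-stimulated genes changed in different ways in the lines. Of 68 such genes tested, with the members left out, 33 rose and 4 fell in CAL-27 (48.5% and 5.88%). Over all tested genes 11.6% rose and 15.7% fell there. The median log2 fold change of the 68 was 0.16, against -0.01 over all genes. The number that fell was 2 without CAL-27 shTTK library 1 or 3, CAL-27 shControl library 2 or SCC-15 shTTK library 2. In SCC-15, 13 rose and 16 fell (19.1% and 23.5%), against 13.4% higher and 14.3% lower over all tested genes. The median of the 68 was -0.04 (-0.05 without 3 genes that had 3 counts or fewer in a group of that line). The SCC-15 change differed from the CAL-27 change for 39 of the 68 by edgeR's interaction test, higher in SCC-15 for 7 and lower for 32. The share of all tested genes called by that test is not given here, so nothing particular to these genes is read from the 39. Without both SCC-15 libraries numbered 1, the SCC-15 counts were 13 rising and 13 falling.

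In CAL-27, IFI27, a mitochondrial and nuclear-envelope protein, averaged 41.2 CPM in shTTK and 11.8 CPM in shControl (log2 fold change 1.80, edgeR adjusted p = 1.02e-28). IFI6, its relative, rose by 0.83 and the antiviral factor SAMD9 by 0.61. OAS2, a sensor that makes 2-5A, rose by 0.58, and BST2, the tetherin that holds budding virions at the cell surface, by 0.47. The 4 genes that fell in CAL-27 were the ubiquitin-like ISG15 (-0.23), the RNA-binding ZC3HAV1 (-0.24), the secreted LGALS3BP (-0.10) and the immunoproteasome subunit PSMB8 (-0.12). The largest edgeR adjusted p among these 9 genes was 0.0201, for PSMB8. In SCC-15, IFIT2, which binds viral RNA, averaged 135 CPM in shTTK and 85.2 CPM in shControl (log2 fold change 0.67, edgeR adjusted p = 1.57e-14), and IFIT3 rose by 0.28, HELZ2 by 0.32 and BST2 by 0.22. EPSTI1 rose by 1.92, at 1.98 CPM in shTTK and 0.519 CPM in shControl. The ISG15-conjugating enzyme UBE2L6 averaged 27.5 CPM in shTTK and 42.8 CPM in shControl (log2 fold change -0.64, edgeR adjusted p = 2.09e-14). TRIM22 fell by 1.56, the helicase DDX60 by 0.56, PARP12 by 0.37 and OAS3 by 0.18.

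**Figure D5:**
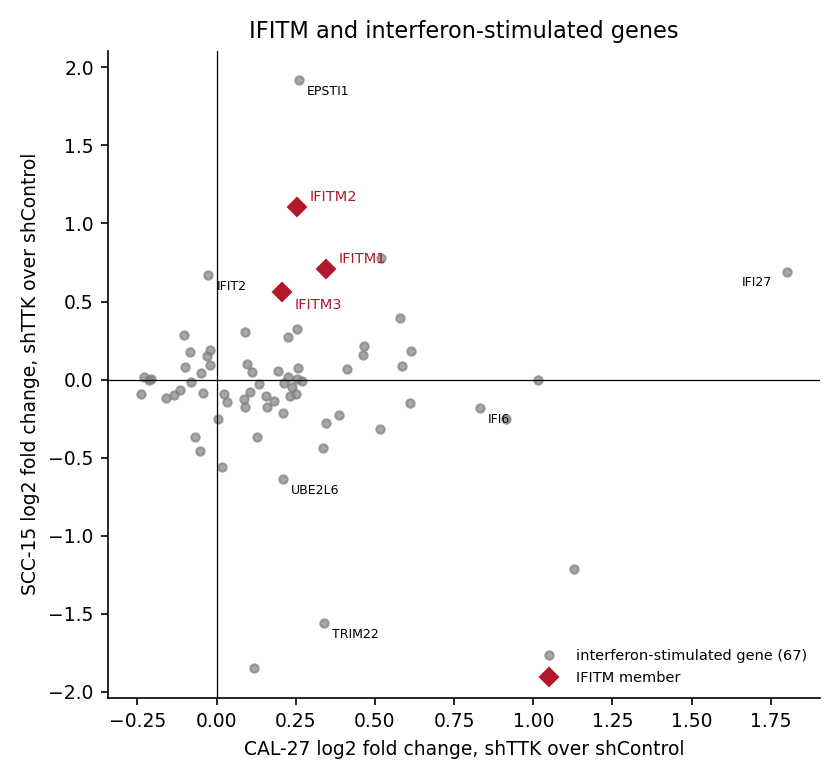
Log2 fold change (shTTK over shControl) in SCC-15 (vertical) against CAL-27 (horizontal) for 67 interferon-stimulated genes (grey) and the 3 IFITM members (red diamonds); 1 further tested gene, CXCL11, listed at 0 counts in SCC-15 shTTK, is not drawn. The members lie in the upper right, at 0.21 to 0.34 in CAL-27 and 0.56 to 1.11 in SCC-15. They were chosen by their SCC-15 change, so their height on that axis is a description. The grey points fall on both sides of 0 in SCC-15. Genes with 0 counts in every SCC-15 library are drawn at 0 on that axis, where no change could be measured.

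The interferon genes themselves were near the detection limit. The 10 listed summed to 1.48 to 1.91 CPM in CAL-27 shTTK and 1.32 to 1.70 CPM in CAL-27 shControl, and to 0.816 to 1.73 CPM in SCC-15 shTTK and 0.857 to 1.52 CPM in SCC-15 shControl. Of these, 1 was tested (IFNE), and 0 were called in either line by edgeR, DESeq2 or limma-voom, also at an unadjusted p under 0.05 in edgeR.

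Among 25 interferon receptor and signalling genes, 11 rose and 4 fell in CAL-27 (median 0.10), and 3 rose and 4 fell in SCC-15 (median 0.01). The shares higher and lower were 44% and 16% in CAL-27, against 11.6% and 15.7% over all tested genes. For SCC-15 they were 12% and 16%, close to the 13.4% and 14.3% over all tested genes. Some of these, IRF7 among them, are counted among the stimulated genes too. In CAL-27 the interferon-gamma receptor chain IFNGR1 rose by 0.32 and IRF7 by 0.46, whereas the feedback inhibitor SOCS3 (-0.57), the receptor chain IFNAR1 (-0.24) and IRF1 (-0.20) fell. In SCC-15 the kinase JAK1 averaged 60.5 CPM in shTTK and 107 CPM in shControl, a log2 fold change of -0.83 (edgeR adjusted p = 7.25e-27). IFNAR1 (-0.47) and IFNGR1 (-0.17) fell too, and SOCS3 (0.46), IRF3 (0.32) and TYK2 (0.12) rose. The remaining 18 were not called in SCC-15, the receptor chains IFNGR2 (0.04), IFNAR2 (0.15) and IFNLR1 (-0.02) among them, which are named for completeness after their values were seen.

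Of 14 tested genes of nucleic acid sensing, 5 rose and 2 fell in CAL-27 (median 0.07, and 3 rose without CAL-27 shControl library 1). In SCC-15, 4 rose and 4 fell (median -0.05). The shares higher and lower were 35.7% and 14.3% in CAL-27, against 11.6% and 15.7% over all tested genes. For SCC-15 they were 28.6% and 28.6%, against 13.4% and 14.3%. In SCC-15 MAVS, the mitochondrial adaptor of RNA sensing, averaged 211 CPM in shTTK and 146 CPM in shControl (log2 fold change 0.52, edgeR adjusted p = 3.48e-21). The RNA sensor IFIH1 rose by 0.30 and TMEM173, which encodes STING, by 0.23. AIM2 fell by 2.24, TLR3 by 0.83 and the kinase IKBKE by 0.44. In CAL-27 TRIM25 (0.20), DHX58 (0.39) and TMEM173 (0.29) rose, and CGAS (-0.28) and IKBKE (-0.20) fell.

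Genes whose products modify IFITM proteins or travel with them gave 1 higher and 5 lower among 18 tested in CAL-27 (median -0.02). In SCC-15, 7 were higher and 3 lower (median 0.06). The shares were 5.56% and 27.8% in CAL-27, against 11.6% higher and 15.7% lower over all tested genes. For SCC-15 they were 38.9% and 16.7%, against 13.4% and 14.3%. The tetraspanin CD9 was the 1 that rose in CAL-27, by 0.37, and 2 rose without SCC-15 shTTK library 1. KDM1A, a demethylase reported to act on IFITM3, fell to 457 CPM in CAL-27 shTTK against 751 CPM in CAL-27 shControl (log2 fold change -0.72, edgeR adjusted p = 8.42e-34). The palmitoyltransferase ZDHHC20 (-0.27) and the segregase VCP (-0.22) fell with it. In SCC-15 the tetraspanins CD81 (0.27) and CD9 (0.24) and the adaptor subunit AP2A2 (0.33) rose, and AP2B1 (-0.56), ZDHHC20 (-0.43) and the methyltransferase SETD7 (-0.17) fell. The AP2 adaptor takes IFITM2 and IFITM3 up from the cell surface, and of its subunits AP2A1 (0.23), AP2A2 and AP2M1 (0.13) rose and AP2B1 fell in SCC-15, of which AP2A1 and AP2M1 are named after their values were seen. The remaining family relatives were barely expressed: of 10 listed, 3 were tested. In CAL-27 edgeR called 1 of them higher and 0 lower, a gene averaging under 1 CPM that DESeq2 did not call and that edgeR did not call without CAL-27 shTTK library 2 or CAL-27 shControl library 1 or 2. In SCC-15 edgeR called 0, with 1 higher at an unadjusted p under 0.05, and DESeq2 and limma-voom called 0.

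The genes whose pattern over the 12 libraries was closest to the mean of the 3 members were NR4A1, SYT7, MAVS and KCNN4, chosen for that likeness and given with no test. Likeness was the root mean square difference of log2(CPM + 0.5), each gene centred on its own mean, among 11036 genes averaging at least 5 CPM. It was 0.116 for NR4A1, 0.122 for both SYT7 and MAVS and 0.131 for KCNN4, against a median of 0.438. NR4A1, an orphan nuclear receptor, averaged 287 CPM in CAL-27 shTTK and 229 CPM in CAL-27 shControl, and 305 CPM in SCC-15 shTTK and 191 CPM in SCC-15 shControl. For the members themselves the value was 0.0524 for IFITM1, 0.246 for IFITM3 and 0.255 for IFITM2, each below that median of 0.438. The genes named above were picked as the closest of 11036, so they are no yardstick for the members. Each member is also part of the mean it is compared with, so nothing is read from its closeness. Over all libraries the log2 CPM of IFITM2 spanned 1.42, that of IFITM1 0.86 and that of IFITM3 0.80.

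Both lines had the markers of epithelial cells. The 11 epithelial markers summed to 7979 to 8050 CPM in CAL-27 shTTK and 6876 to 7167 CPM in CAL-27 shControl, and to 8783 to 8912 CPM in SCC-15 shTTK and 8456 to 8630 CPM in SCC-15 shControl. In CAL-27 6 rose and 4 fell (54.5% and 36.4%), against 11.6% and 15.7% over all tested genes. In SCC-15 5 rose and 3 fell (45.5% and 27.3%), against 13.4% and 14.3%. Basal KRT5 (1.12) and TP63 (1.10) rose in CAL-27 and simple-epithelial KRT8 (-0.68) and KRT18 (-0.55) fell, whereas KRT5 (-0.27) fell and KRT8 (0.48) and CDH1 (0.75) rose in SCC-15. KRT19, also a simple-epithelial keratin, went the other way in CAL-27. It rose by 1.27, at 2.01 CPM in shTTK and 0.827 CPM in shControl, and is named after its value was seen. The part of these markers in the IFITM results was not tested. IFITM genes are also expressed by stromal and blood cells, whose markers summed to far less than the epithelial ones. They were not all low. Endothelial CDH5 averaged 71.5 CPM in CAL-27 shTTK and 104 CPM in CAL-27 shControl, where it was above IFITM1 and IFITM2. The 11 leukocyte markers summed to 18.3 to 22.0 CPM in both CAL-27 groups, and to 8.53 to 9.04 CPM in SCC-15 shTTK and 9.58 to 11.1 CPM in SCC-15 shControl, with 3 to 5 of them at 0 throughout a group. The 10 fibroblast markers summed to 41.5 to 42.4 CPM in CAL-27 shTTK and 32.0 to 37.8 CPM in CAL-27 shControl, and to 20.7 to 22.7 CPM in SCC-15 shTTK and 21.2 to 22.95 CPM in SCC-15 shControl, with 2 to 4 at 0. The 8 endothelial markers summed to 83.7 to 86.5 CPM in CAL-27 shTTK and 115 to 124 CPM in CAL-27 shControl, most of it CDH5, and to 46.1 to 55.6 CPM in SCC-15 shTTK and 52.3 to 57.0 CPM in SCC-15 shControl. Of these markers, 4 endothelial, 4 fibroblast and 3 leukocyte genes were tested, some of them near 0 CPM in SCC-15 and so hard to call there. Over all tested genes 27.7% were called in SCC-15 and 27.3% in CAL-27. In SCC-15, edgeR, DESeq2 and limma-voom called 0 markers of these 3 cell types. At an unadjusted p under 0.05 edgeR also found 0 (1 endothelial marker was called lower without both libraries numbered 1). In CAL-27, COL1A1 (0.36) and CD14 (0.46) were among the 3 called higher and CDH5 (-0.54) and CSF1R (-0.52) among the 3 called lower, and their part in the IFITM results was not tested. Leaving out single libraries moved the CAL-27 counts of each of these cell types by 1 or 2 genes. In bulk RNA, fewer cells of a type and less RNA per cell cannot be told apart.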

How the data were processed

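The table the authors deposited holds raw counts per gene for 12 poly(A) RNA libraries, all labelled batch 1, with no normalization. Paired reads of 150 bases came from dUTP strand-marked libraries, per the labels' protocols. The submitters' processing notes name featureCounts 2.0.1, STAR 2.7.7a, Trim Galore 0.6.6 and hg38. The annotation release and counting options: not given in the sources used here. 0 columns could not be mapped to a sample.

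edgeR 4.0.16 in R 4.3.3 (limma 3.58.1) was fitted to all 12 libraries with 4 group means, after filterByExpr (16946 genes) and TMM scaling, with the robust quasi-likelihood test. P-values were adjusted by Benjamini-Hochberg over all tested genes and called under 0.05. CPM is TMM-scaled. Coordinates are those of GENCODE release 29, and promoters those of RefSeq; symbols with several positions were not placed. Alternatives were RLE scaling, DESeq2 1.42.0, limma-voom, other filters, each line alone, a replicate block, summed members, other windows and lengths, and fits without each library. The steps were tested on simulated data.

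The members, the 11 lists and the neighbour window were chosen with earlier results of these data known. Named were the members, TTK, up to 3 called genes per list, line and direction by adjusted p (5 for interferon-stimulated genes), tested genes within 100 kb and the 4 most alike. A gene that the rule takes is not reported here. List genes averaging under 1 CPM were counted, not named. BET1L, RNH1 and HRAS were named after their values were seen, to complete a count.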

Additional observations from a re-analysis of the deposited data

Results flagged for a closer look

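For the following genes named beside the IFITM members, the knockdown change differed between the lines by edgeR's interaction test (adjusted p under 0.05, up to 0.0495 for IKBKE). Each value is the SCC-15 log2 fold change minus the CAL-27 log2 fold change. The share of all tested genes called by this test is not given here, so the length of the list is not read as a result. The members' own differences were not tested, since the SCC-15 change chose them, and groups of 3 libraries are too small to single out a library.

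Among the neighbours of the cluster the difference was positive for PGGHG (0.60), PTDSS2 (0.48), SIGIRR (0.43), RASSF7 (0.41), RIC8A (0.35), PKP3 (0.34) and PSMD13 (0.19), and negative for MIR210HG (-0.59). Of the interferon-stimulated genes it was positive for EPSTI1 (1.66), IFIT2 (0.69), IFIT3 (0.39), ISG15 (0.24) and LGALS3BP (0.18). It was negative for TRIM22 (-1.90), IFI27 (-1.11), IFI6 (-1.01), UBE2L6 (-0.84), DDX60 (-0.57), SAMD9 (-0.43), OAS3 (-0.34), PARP12 (-0.30) and BST2 (-0.25).

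In signalling the values were 1.04 for SOCS3, 0.21 for IRF1, -0.24 for IFNAR1, -0.49 for IFNGR1 and -0.67 for JAK1. In nucleic acid sensing they were 0.43 for MAVS, 0.41 for CGAS, -0.23 for IKBKE, -0.33 for TRIM25, -0.62 for DHX58, -1.23 for TLR3 and -2.29 for AIM2. Among the IFITM-modifying enzymes and partners they were 0.91 for KDM1A, 0.35 for AP2A2, 0.27 for CD81, 0.18 for VCP, -0.12 for CD9, -0.17 for ZDHHC20 and -0.53 for AP2B1. For markers they were 1.17 for KRT8, 0.91 for KRT18, 0.86 for CDH1, 0.31 for EPCAM, -0.21 for LAMB3, -0.22 for DSP, -0.34 for COL1A1, -1.28 for TP63 and -1.39 for KRT5.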

How the results depend on the processing

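In CAL-27 all 3 members stayed higher and called under all 21 alternatives, at log2 fold changes of 0.30 to 0.42 (IFITM1), 0.22 to 0.30 (IFITM2) and 0.14 to 0.26 (IFITM3), with edgeR, DESeq2 or limma adjusted p of at most 0.0078. In SCC-15 the untested values kept their sign, at 0.68 to 0.75 (IFITM1), 1.08 to 1.15 (IFITM2) and 0.53 to 0.58 (IFITM3). As sums, SCC-15 gave 0.61 for all 3 members and 0.60 for IFITM2 and IFITM3, with the difference from the single genes set by the weight of IFITM3. The correction for GC content and length, chosen after seeing the data, gave 0.53 for IFITM3 in SCC-15, differences between lines of 0.78 (IFITM2) and 0.28 (IFITM3), and SCC-15 over CAL-27 control levels of -0.51, -1.21 and -0.036 for IFITM1, IFITM2 and IFITM3, the last with its sign turned. The cause was not tested. Leaving out single libraries, the difference between lines ran from 0.29 to 0.40 for IFITM1 and from 0.31 to 0.42 for IFITM3. The replicate numbers did not pair the libraries (correlations of deviations from -0.030 to 0.023), and with the number as a replicate block the CAL-27 values were 0.35, 0.25 and 0.21 for IFITM1, IFITM2 and IFITM3 and the SCC-15 values 0.71, 1.11 and 0.56, with no call among them changed.

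Of the interferon-stimulated genes, 2 rather than 4 fell in CAL-27 with no filter, and 2 to 4 fell without single libraries. Within other windows, the neighbours called higher in SCC-15 were 7 (100 kb), 22 (1 Mb) and 31 (5 Mb, with 3 lower). In CAL-27 1, 5 and 11 were higher and, at 1 and 5 Mb, 12 and 16 lower. At 100 kb the genes lower in CAL-27 included PKP3 and AC136475.3. The windows are nested. Tested neighbours numbered 24 within 250 kb, 27 from 250 kb to 1 Mb and 39 from 1 to 5 Mb. Over all tested genes 13.4% were higher and 14.3% lower in SCC-15, and 11.6% and 15.7% in CAL-27. The 5 Mb window was added after seeing the data. In CAL-27 endothelial markers higher were 1 with no filter and 2 without both SCC-15 libraries numbered 1, and endothelial markers lower were 1 under DESeq2 and under a 1 CPM filter. Fibroblast markers higher were 1 under that filter and with CAL-27 alone. The relative called higher was 0 under DESeq2, the 1 CPM filter and CAL-27 alone. IFITM partners higher were 2 with CAL-27 alone and with the GC correction. In SCC-15, 1 endothelial marker was lower with the GC correction and without both libraries numbered 1. Without single libraries, the CAL-27 counts were 0 to 2 endothelial, 1 to 2 fibroblast and 0 to 1 leukocyte markers higher, 1 to 2 endothelial markers lower, 0 to 1 relatives, 1 to 2 partners and 3 to 5 sensing genes higher, and 1 to 3 neighbours lower. In SCC-15, 0 to 1 endothelial markers were lower.

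Per exon length, the shares of IFITM1, IFITM2 and IFITM3 were 16.4%, 9.03% and 74.6% in CAL-27 shTTK, 15.2%, 8.91% and 75.9% in CAL-27 shControl, 12.9%, 6.12% and 81.0% in SCC-15 shTTK, and 12.01%, 4.33% and 83.7% in SCC-15 shControl. At 150 bases, 20.7%, 15.4% and 10.5% of the stretches of IFITM1, IFITM2 and IFITM3 also occurred in another gene. At 75 bases the shares were 29.8%, 24.2% and 23.9%, and at 50 bases 32.0%, 34.3% and 35.2%. The depth limits the interferon genes, which were mostly too low to test.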
